A study of Mus musculus with 2 samples.

Results

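The genes described here are 35 mouse genes of mTOR and insulin signalling, chosen by name from what is known of the pathway, with no measured value in the rule, though earlier results of these data were known when the set was drawn up. They cover the mTOR complexes, the proteins that carry the insulin and energy signals to them, and the proteins on which they act. Of the 35 genes, 33 had a probe under their current or an older symbol, out of 19349 genes named on the arrays. Eif4e and Rragd had no probe under any of their names, so no expression value is given for them. The kinase Mtor itself was listed under its older symbol Frap1, Mlst8 as Gbl, Deptor as Depdc6, Tfeb as Tcfeb, Foxo3 as Foxo3a and Sgk1 as Sgk, while Rptor and Rictor carried Riken clone names.

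RNA from the liver of mice without Wip1 (Wip1 KO) was compared with that of wild-type (WT) mice after partial hepatectomy, surgery in which part of the liver is taken out and the remainder grows back. All mice were 3 months old. Each of the 2 arrays held both genotypes at a single time, 24 h or 36 h after surgery, with Wip1 KO RNA labelled in Cy5 and WT RNA labelled in Cy3. Neither the number nor the sex of the mice behind a channel is in the labels, nor is the way the allele was made or whether RNA was pooled. The 4 groups were therefore 1 RNA each, namely WT at 24 h, Wip1 KO at 24 h, WT at 36 h and Wip1 KO at 36 h. There was no liver from before surgery and no array with exchanged dyes, so an uneven response of a probe to both dyes and an effect of genotype cannot be told apart in a ratio within 1 array. Without replicates no test could be run and no p-value is given, and having 1 array per time limits how precise any value is.

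Insulin binds its receptor, which phosphorylates the receptor substrates IRS1 and IRS2, and these recruit the lipid kinase PI3K, whose product lets PDK1 activate AKT. AKT inhibits the TSC complex, which frees the small GTPase RHEB to activate the kinase complex mTORC1 on lysosomes, where RAG GTPases bring it when amino acids are plentiful. The complex then drives protein synthesis and holds autophagy back, and in the liver AKT also keeps FOXO1 out of the nucleus, where it would switch on genes of the fasting response. Regrowth after hepatectomy is a setting in which mTORC1 activity is known to be needed. Most of this control acts on proteins through phosphate groups, which arrays of RNA do not measure.

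Each value below is a log2 intensity after background correction and loess normalisation, or a difference between such intensities, called a log2 ratio. A gene counted as measured in a comparison when every channel used exceeded its local background by more than 2 background SDs, and as called when at least 2-fold apart (a log2 ratio of at least 1 in size). Of the 33 genes with a probe, 23 were above background in all 4 channels and Prkaa1 in 3 of them. The remaining 9 genes, Insr, Irs1, Rictor, Tsc1, Eif4ebp1, Rps6ka1, Prkaa2, Tfeb and Foxo3, were not well above background in any channel and have no ratio here. None of the members was saturated. Of the genes measured with several probes, the median SD between probes of 1 gene was 0.156 log2 units for the ratio at 24 h (837 genes) and 0.147 at 36 h (799 genes). This spread lies within an array and does not cover differences between animals.

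Ppm1d, the gene that encodes Wip1, was below background in all 4 channels on its single probe, so the arrays do not check which channel holds KO RNA. Of 31920 gene probes, 33.2% were above background in Wip1 KO and 41.4% in WT at 24 h, and 31.1% and 36.8% at 36 h. All 15 hepatocyte markers on the arrays, which mark the main cell of the labelled tissue, were measured, and their median log2 ratio of Wip1 KO over WT was 0.44 at 24 h and 0.85 at 36 h. Of the 17 stellate and matrix markers on the arrays, 15 were measured at 24 h, all above 0 with a median of 1.06, and 12 were measured at 36 h with a median of -0.31. The 15 macrophage markers had a median of -0.49 at 24 h, and the 14 measured at 36 h a median of 0.18. For 12 G2/M genes the median was 0.67 at 24 h, and for 9 at 36 h it was -1.96. Male-biased liver genes had medians of 0.25 (5 genes) and 3.65 (8 genes), and female-biased genes -2.05 (9 genes) and -3.78 (10 genes), at 24 h and 36 h. In bulk liver RNA a smaller number of cells of a type and less of an RNA in each cell cannot be told apart. The part of cell makeup, of cell division and of sex-biased expression in the ratios below was not tested.

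The members that differed at least 2-fold between genotypes were Ddit4 and Irs2, and Mtor had the largest shift in its genotype ratio between the times. Their promoters are shown so that a reader can see the sequence beside each response, as the 250 bases before the annotated start in RefSeq on build GRCm38.p6. The promoter of Ddit4 lies on the minus strand at chr10:59951771-59952020, that of Irs2 on the minus strand at chr8:11008930-11009179 and that of Mtor on the plus strand at chr4:148448332-148448581. Each is printed 5′ to 3′, with any match to the motifs described next in capitals.
Ddit4: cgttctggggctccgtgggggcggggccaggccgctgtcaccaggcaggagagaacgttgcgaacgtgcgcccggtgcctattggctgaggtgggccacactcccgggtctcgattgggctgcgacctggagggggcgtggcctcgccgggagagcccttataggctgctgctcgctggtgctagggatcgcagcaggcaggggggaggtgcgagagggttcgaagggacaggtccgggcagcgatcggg
Irs2: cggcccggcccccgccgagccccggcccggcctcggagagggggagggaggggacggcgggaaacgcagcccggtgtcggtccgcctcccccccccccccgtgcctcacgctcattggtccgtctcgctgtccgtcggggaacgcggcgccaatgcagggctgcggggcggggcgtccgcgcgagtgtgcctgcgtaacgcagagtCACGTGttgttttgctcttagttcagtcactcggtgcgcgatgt
Mtor: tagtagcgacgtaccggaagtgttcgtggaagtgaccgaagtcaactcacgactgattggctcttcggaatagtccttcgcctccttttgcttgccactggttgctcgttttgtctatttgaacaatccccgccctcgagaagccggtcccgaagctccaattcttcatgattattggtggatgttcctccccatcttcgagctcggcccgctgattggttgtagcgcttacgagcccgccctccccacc
Guanine and cytosine make up 70% of the Ddit4 promoter, 72.8% of that of Irs2 and 54.4% of that of Mtor. 3 motifs were searched on both strands in the 250 bases before 32851 annotated mouse starts. GTAAACA, a core to which FOXO factors bind, was found before 3.17% of all starts, the E-box CACGTG before 6.02% and the cyclic AMP response element TGACGTCA before 1.55%. Of 47 starts of 31 members, 1 held the FOXO core (Akt1), 5 the E-box (Irs1, Irs2, Eif4e, Rheb and Sgk1) and 0 the cyclic AMP element. The capitals in the Irs2 promoter mark its E-box, from position -44 to position -39 relative to the start. The promoters of Ddit4 and Mtor held none of these letters in this window.

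The first comparison set Wip1 KO against WT at 24 h. Ddit4 and Irs2, an inhibitor of mTORC1 and an adaptor that the insulin receptor uses, were at least 2-fold lower in Wip1 KO. No member was called higher. That made 2 of the 24 measured members called, beside 2.27% of all 7984 genes measured at 24 h. By direction, 0.752% of all genes were called lower and 1.52% higher. The median log2 ratio of the 24 members was -0.06, with 11 above 0 and 13 below, against a median of 0.01 over all genes and 51.8% of them above 0. At a smaller threshold of 1.5-fold, 5 of the 24 members passed, beside 10.9% of all genes.

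Ddit4 encodes REDD1, a protein induced by stress, low oxygen and glucocorticoids that restrains mTORC1 through the TSC complex. The gene lies at chr10:59949675-59951770 in GRCm38.p6. Its log2 intensity at 24 h was 8.80 in WT and 7.71 in Wip1 KO, and at 36 h it was 8.15 in WT and 8.32 in Wip1 KO. The Wip1 KO sample at 24 h stood below the other 3, which spanned from 8.15 to 8.80. Ddit4 was thus 2.13-fold lower in Wip1 KO at 24 h (log2 ratio -1.09), the 49th lowest of 7984 genes, and its log2 ratio at 36 h was 0.17. The authors' deposited table gives log2 ratios of -1.56 and 0.33. All 4 channels exceeded background, by 16.7 background SDs in WT and 6.12 in Wip1 KO at 24 h and by 4.91 and 5.68 at 36 h.

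Irs2 is the receptor substrate that carries much of the insulin signal in hepatocytes. The gene lies at chr8:10984681-11008929. Its log2 intensity was 9.05 in WT and 8.04 in Wip1 KO at 24 h, and 9.28 and 9.16 at 36 h. The Wip1 KO liver at 24 h was the lowest, as for Ddit4, and for Irs2 the other 3 lay close together. The difference at 24 h was 2.01-fold, just past the threshold, and with loess fitted by print-tip block the log2 ratio was -0.96 and no longer called. The Wip1 KO channel at 24 h was 3.06 background SDs above its background, against 11.6 to 14.4 in the other 3 channels. At 36 h the log2 ratio was -0.12. The authors' deposited table gives -1.23 at 24 h and -0.17 at 36 h.

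Sgk1, which encodes a kinase related to AKT that mTORC2 activates and glucocorticoids induce, came closest to a call among the rest. Its log2 intensity was 8.62 in WT and 7.74 in Wip1 KO at 24 h, and 8.03 and 8.31 at 36 h. WT at 24 h was the highest of the 4 and Wip1 KO at 24 h the lowest. The log2 ratio was -0.88 at 24 h and 0.28 at 36 h, and in the authors' deposited table it was -1.22 and 0.46. Its channels were between 2.66 and 6.95 background SDs above background.

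**Figure D1:**
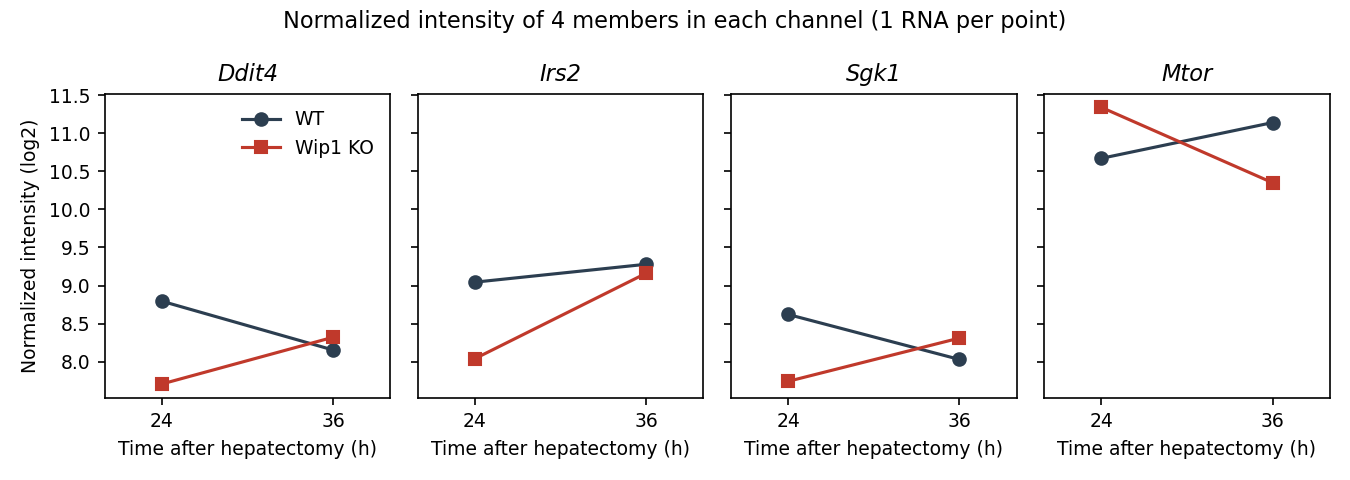
Normalised log2 intensity (vertical axis) of Ddit4, Irs2, Sgk1 and Mtor at 24 h and 36 h (horizontal axis), with circles for WT and squares for Wip1 KO. Each point is 1 RNA and there are no error bars because there were no replicates. For Ddit4, Irs2 and Sgk1 the Wip1 KO point at 24 h is the lowest of its panel (7.71, 8.04 and 7.74), and for Mtor the lines cross. Heights are comparable within a panel only, since probes differ in brightness.

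The subunits of the mTOR complexes had ratios of both signs at each time. The catalytic subunit Mtor had a log2 intensity of 10.67 in WT and 11.34 in Wip1 KO at 24 h, and of 11.14 and 10.35 at 36 h. Wip1 KO was the higher genotype at 24 h and the lower at 36 h. The log2 ratio was 0.67 at 24 h, the 397th highest of 7984 genes, and -0.80 at 36 h, the 243rd lowest of 7427, so neither reached 2-fold. All 4 channels were at least 18.3 background SDs above background, and the authors' deposited table gives 0.59 and -0.91.

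Raptor (Rptor), which binds the substrates of mTORC1, had log2 ratios of -0.31 and 0.19 at 24 h and 36 h. A further probe for Rptor was below background in all 4 channels. Mlst8, the subunit shared by both complexes, had -0.49 and -0.24, and Akt1s1, which encodes the inhibitor PRAS40, -0.34 and -0.20. Deptor, another inhibitor that binds the kinase, had 0.01 at 24 h and 0.52 at 36 h, where its log2 intensity was 9.90 in WT and 10.41 in Wip1 KO. Its low value was the WT sample at 36 h, the other 3 lying between 10.36 and 10.41. None of these 4 subunits was called in either comparison. Rictor, the subunit that defines mTORC2, was not measured.

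Between the insulin receptor and AKT, 5 of the 6 measured genes had a log2 ratio below 0 at 24 h, and 4 of the 6 had one above 0 at 36 h. Pik3r1, the regulatory subunit of PI3K, was the exception at 24 h. Its log2 intensity was 9.36 in WT and 10.11 in Wip1 KO at 24 h and 9.08 and 9.82 at 36 h. Both Wip1 KO samples were above both WT samples, with log2 ratios of 0.75 and 0.74, under 2-fold and equal in direction on both arrays, where a dye effect and a genotype effect cannot be told apart. The dimmer probe for Pik3r1 gave -0.17 at 24 h, so the probes disagreed, and at 36 h its Wip1 KO channel was not well above background. The authors' deposited table gives 0.87 and 0.80 for the brighter probe.

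Pik3ca, the catalytic subunit, had log2 ratios of -0.17 at 24 h and 0.62 at 36 h. Its Wip1 KO sample at 36 h, with a log2 intensity of 8.49, was above the other 3, which ranged from 7.83 to 7.997. Pdpk1, which encodes PDK1, had -0.13 and 0.46, with the highest intensity again in Wip1 KO at 36 h (9.59, against 9.13 to 9.27). Akt1 had -0.09 and -0.48, and its further probe -0.27 and -0.36. Akt2, the isoform most tied to insulin action in liver, had -0.26 and 0.04. Insr and Irs1 were not measured.

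In the step that joins AKT and amino acids to mTORC1, the log2 ratios were smaller. Tsc2, which encodes the part of the TSC complex that switches RHEB off, had 0.23 at 24 h and -0.34 at 36 h. Rheb had -0.04 and -0.02, and its log2 intensities of 12.42, 12.37, 12.09 and 12.07 in WT and Wip1 KO at 24 h and then at 36 h differed little between genotypes. The sign of its ratio turned under 2 of 10 alternative settings at 24 h and 3 of 10 at 36 h. Rraga, a RAG GTPase, had -0.26 and -0.20.

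Among the energy sensors, Stk11, which encodes the kinase LKB1 that activates AMPK, stayed between 10.96 and 11.02 in all 4 channels. Its log2 ratios were 0.01 and 0.06. Prkaa1, a catalytic subunit of AMPK, had a log2 ratio of 0.28 at 24 h, where its Wip1 KO channel was 2.12 background SDs above background. At 36 h its Wip1 KO channel was not well above background and no ratio is given. A further probe for Prkaa1 was below background in all 4 channels. Prkaa2, which encodes the other AMPK catalytic subunit, was not measured.

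The genes whose proteins mTORC1 phosphorylates or uses to raise translation had mostly positive ratios, none of them called. Rps6kb1 and Rps6kb2 encode S6 kinases. Rps6kb1 had log2 ratios of -0.08 and -0.12, and Rps6kb2 0.26 and 0.57. The Rps6kb2 intensity was 11.14 in Wip1 KO at 36 h, against 10.40 to 10.66 in the other 3 samples. Eif4ebp2, a repressor of the cap-binding factor eIF4E, had 0.52 and 0.33, with WT at 24 h the lowest of its 4 intensities (8.79, the others 9.13 to 9.46). Eif4b, a helper of the helicase that unwinds mRNA leaders, was measured with 4 probes. Their log2 ratios at 24 h were 0.04, -0.55, 0.14 and -0.04 from the brightest on, and those at 36 h were 0.40, 0.37, 0.10 and 0.66. All 4 probes were above 0 at 36 h, while at 24 h they disagreed in sign.

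Ulk1, the kinase that starts autophagy when mTORC1 is off, had log2 ratios of 0.35 and 0.08. Foxo1, the transcription factor that AKT keeps out of the nucleus, had 0.41 and 0.21. At each time both were higher in Wip1 KO than in WT, by less than 2-fold. Tfeb, a lysosomal transcription factor under mTORC1, and Foxo3 were not measured.

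**Figure D2:**
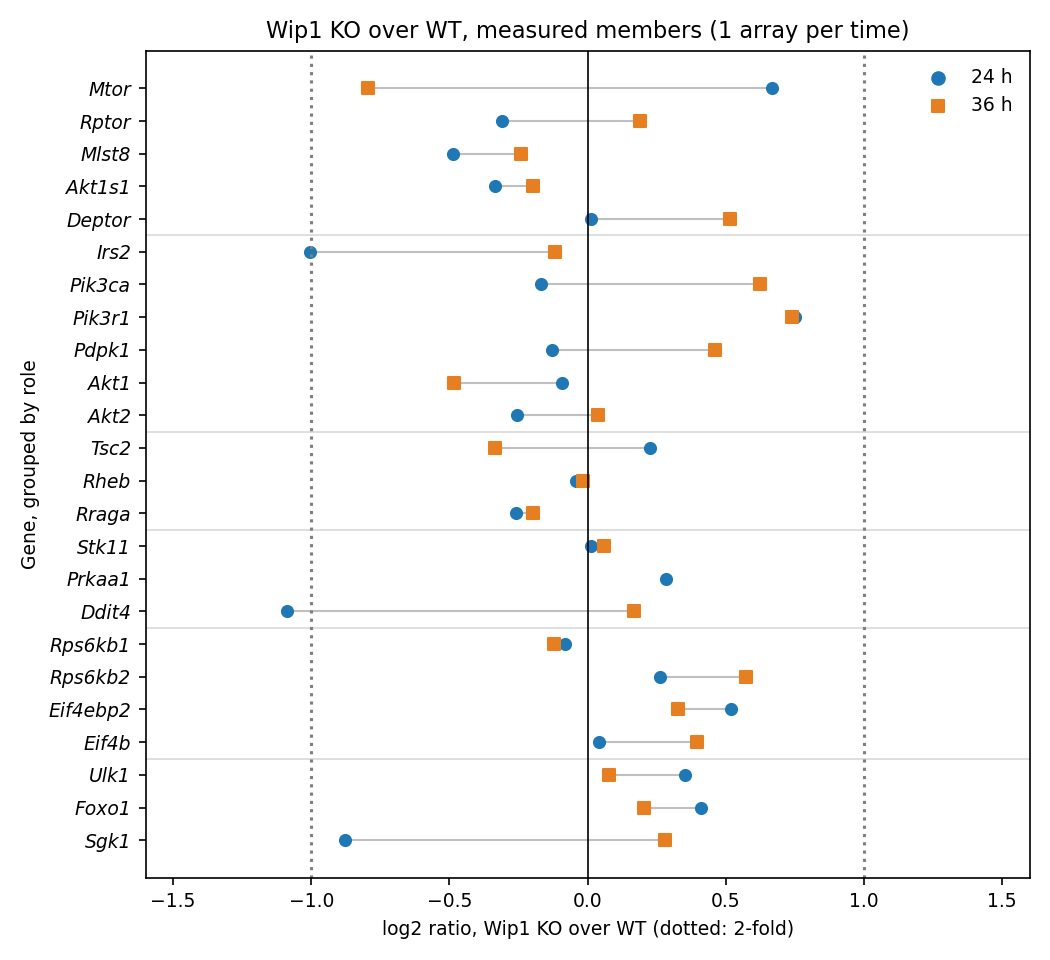
Log2 ratio of Wip1 KO over WT (horizontal axis) for each of the 24 measured members (vertical axis, grouped by role), with circles for 24 h and squares for 36 h, 1 array each. Dotted lines mark 2-fold. Ddit4 (2.13-fold lower) and Irs2 (2.01-fold lower) reach the lower line at 24 h, no member reaches either line at 36 h, and Mtor moves from 0.67 to -0.80.

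The second comparison set Wip1 KO against WT at 36 h. None of the 23 measured members was called, while 4.71% of all 7427 genes were. At 1.5-fold, 3 of the 23 members passed (Mtor, Pik3r1 and Pik3ca), beside 14.5% of all genes. The members ranged from -0.80 (Mtor) to 0.74 (Pik3r1), with a median of 0.08 against 0.03 over all genes. Of the 23, 14 lay above 0 and 9 below, and 54.0% of all genes lay above 0. By role, the medians were -0.20 for the 5 mTOR subunits, 0.25 for the 6 genes from receptor to AKT, -0.20 for the 3 genes of TSC, RHEB and RAG, and 0.36 for the 4 translation genes.

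The next pair of comparisons set 36 h against 24 h within each genotype. The arrays were first brought to equal average brightness, and array and time cannot be told apart in these values. In WT none of the 24 measured members was called, while 2.94% of all 8549 genes were. The WT changes ran from -0.64 (Ddit4) to 0.47 (Mtor), with a median of -0.13 against 0.03 over all genes, and 9 of the 24 lay above 0, beside 53.9% of all genes. In Wip1 KO, 1 of the 23 measured members was called, Irs2, which rose, while 6.14% of all 7083 genes were called and 2.53% rose. The Wip1 KO changes ran from -0.99 (Mtor) to 1.12 (Irs2), with a median of 0.15 against 0.05 over all genes, and 14 of the 23 lay above 0, beside 55.1% of all genes.

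Irs2 rose 2.18-fold from 24 h to 36 h in Wip1 KO and had a log2 change of 0.24 in WT, so that both genotypes stood at 9.28 and 9.16 at 36 h. This was the 121st highest of the 7083 changes in Wip1 KO. Mtor in Wip1 KO had a log2 change of -0.99, just short of the threshold, and 0.47 in WT. That Wip1 KO change was past 2-fold under 3 of 10 alternative settings, with a range of -1.06 to -0.89. Ddit4 had -0.64 in WT and 0.61 in Wip1 KO, and Sgk1 -0.59 and 0.57. Both genes thus had lower intensity at 36 h than at 24 h in WT and higher intensity in Wip1 KO, each by less than 2-fold.

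Other members differed less between the genotypes over time. Foxo1 had log2 changes of -0.47 in WT and -0.67 in Wip1 KO, and Ulk1 -0.34 and -0.61. Rheb had -0.33 and -0.30, and Pik3r1 -0.28 and -0.29. These 4 genes had lower intensities at 36 h than at 24 h in both genotypes. Akt1 had -0.37 in WT and -0.76 in Wip1 KO on its brighter probe, but 0.14 and 0.05 on the other, so its probes disagreed. Tsc2 had -0.13 and -0.69. Pik3ca had -0.13 in WT and 0.67 in Wip1 KO, and Pdpk1 -0.14 and 0.45. In the same comparisons the 12 measured G2/M genes had a median change of 1.06 in WT, and the 9 measured in Wip1 KO one of -1.23. Stellate and matrix markers had 0.06 (14 genes) and -1.16 (12 genes), and bile duct markers 0.14 (8 genes) and -1.47 (4 genes). The 15 hepatocyte markers had -0.26 in WT and 0.18 in Wip1 KO, and macrophage markers 0.00099 (15 genes) and 0.71 (14 genes). Male-biased liver genes had -0.44 in WT (6 genes) and 1.86 in Wip1 KO (5 genes, all called), and female-biased genes 0.62 (11 genes) and -1.19 (9 genes). Their part in the members' changes was not tested.

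**Figure D3:**
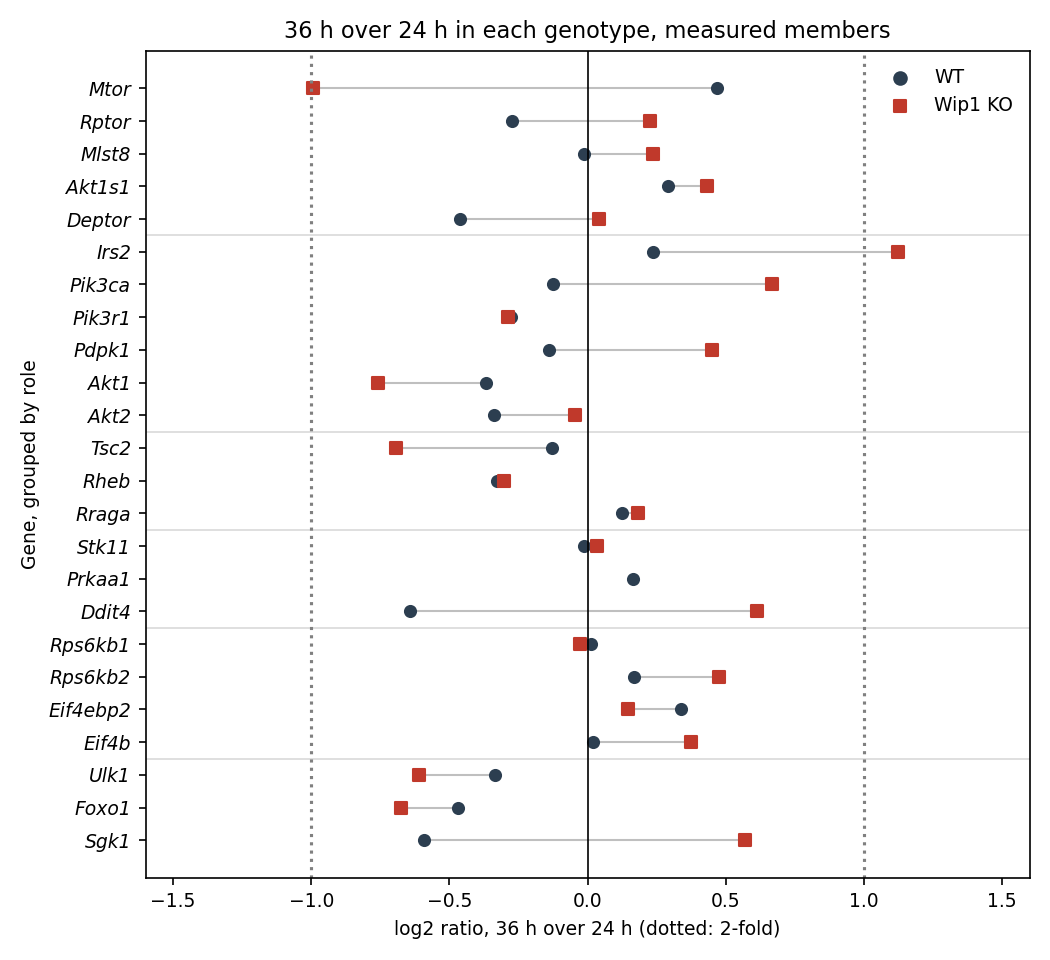
Log2 change from 24 h to 36 h (horizontal axis) for the 24 measured members (vertical axis, grouped by role), with circles for WT and squares for Wip1 KO. Dotted lines mark 2-fold. Only Irs2 in Wip1 KO is past a line (1.12), with Mtor in Wip1 KO next to the other line (-0.99).

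The last comparison asked whether the genotype ratio differed between the times, as the log2 ratio at 36 h minus that at 24 h. A dye effect of a probe that is equal on both arrays cancels in it. Of the 23 members measured in all 4 channels, 3 were called, and 8.22% of all 6995 genes were, 4.05% with a higher ratio at 36 h and 4.17% with a lower one. Ddit4 and Sgk1 had differences of 1.26 and 1.16, the 157th and 188th highest of the 6995, and Mtor had -1.46, the 135th lowest. For all 3, the ratio changed sign from 24 h to 36 h. Irs2 followed with 0.89, Pik3ca with 0.79 and Pdpk1 with 0.59, none of them called. On the low side Tsc2 had -0.56 and Akt1 -0.39.

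The median difference of the 23 members was 0.14, against 0.03 over all genes, with 15 members and 53.2% of all genes above 0. Ratios of opposite sign at both times were found for 8 of the 23 members (34.8%) and for 46.9% of all genes. Of these 8 members, 6 went from below to above 0 and 2, Mtor and Tsc2, from above to below. Within the mTOR complexes the difference was -1.46 for Mtor and 0.50 for its partner Rptor. Deptor had 0.50, Mlst8 0.25 and Akt1s1 0.14.

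For Ddit4, Irs2 and Sgk1 alike, the Wip1 KO sample at 24 h was the lowest of the 4. This order was not particular to them. It also held for Mlst8, Rptor, Akt1s1, Rraga and Pik3ca, whose log2 ratios at 24 h ran from -0.49 to -0.17. The share of all genes with this order was not counted. Ddit4 is induced by glucocorticoids and by low oxygen, and a list of 18 other genes, chosen around these responses, was read beside it. Not all genes of the list, which includes Hif1a and Epas1, need share the inputs of Ddit4. Of the 14 measured at 24 h, 2 were called, beside 2.27% of all genes, and both were higher. They were Pfkfb3, an enzyme that makes an activator of glycolysis (log2 ratio 1.18), and Klf9, a transcription factor induced by glucocorticoids (1.09). Of 3 Pfkfb3 probes only the brightest was above background in both channels at 24 h. That probe had no value under a stricter filter at 5 background SDs. The list's median was 0.15 at 24 h and 0.02 at 36 h. Among 12 measured at 36 h, Tat, a tyrosine-degrading enzyme of hepatocytes, was called higher (1.20). Egln3, a hypoxia-induced prolyl hydroxylase, was called lower (-1.31), and 4.71% of all genes were called. Tat is also among the hepatocyte markers, whose median was 0.85 at 36 h. Over time in WT, 14 were measured and only Tat was called, which fell (-1.26), beside 2.94% of all genes. For the difference between times, 12 were measured, and 8.22% of all genes were called. Called from the list were Tat (1.49), Klf9 (-1.28) and Nfkbia, the inhibitor of NF-kappa B (-1.01).

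**Figure D4:**
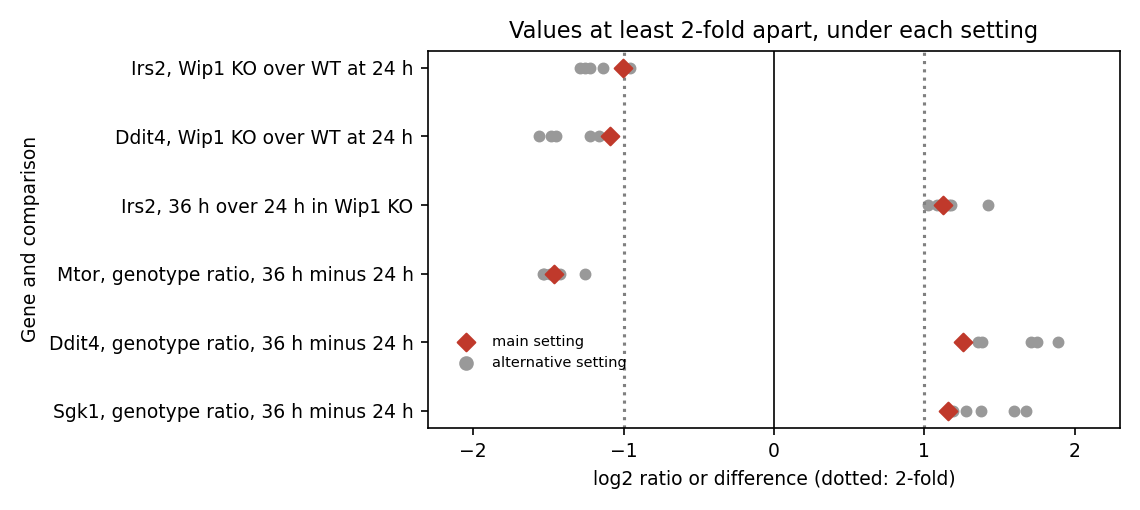
Each member value that was at least 2-fold apart (vertical axis) as a log2 ratio or difference (horizontal axis), with a red diamond for the main setting and a grey circle for each alternative that gave a value. Dotted lines mark 2-fold. All alternatives for Ddit4, Sgk1 and Mtor, and those for Irs2 over time, lie outside the lines, and for Irs2 at 24 h 8 of 9 do.

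A list of 22 transcripts that insulin or FOXO1 are known to control in liver was read beside the members. The list mixes genes that insulin raises with genes that it lowers, so its median does not measure insulin action. Of 14 measured at 24 h, 3 were called, all higher in Wip1 KO, beside 2.27% of all genes called and 1.52% called higher, and the list's median was 0.27 against 0.01 over all genes. Igfbp1 encodes a secreted protein that binds insulin-like growth factors, and FOXO1 induces it while insulin lowers it. Its log2 intensity was 10.77 in WT and 12.83 in Wip1 KO at 24 h, and 12.25 and 10.30 at 36 h. The highest value was Wip1 KO at 24 h and the lowest Wip1 KO at 36 h. Igfbp1 was 4.19-fold higher at 24 h and 3.88-fold lower at 36 h in Wip1 KO, with a difference of -4.02 in log2 ratio. Over time it rose in WT (1.49) and fell in Wip1 KO (-2.54).

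Acaca and Fasn, the enzymes of fatty acid synthesis that insulin induces, were also higher in Wip1 KO at 24 h, with log2 ratios of 1.25 and 1.23. Fasn intensities were 10.35 and 11.57 at 24 h and 10.04 and 10.32 at 36 h, in WT and Wip1 KO, so that Wip1 KO at 24 h stood above the other 3. Of 4 Acaca probes only the brightest was above background. At 36 h, Angptl4, a fasting-induced inhibitor of lipoprotein lipase, was 4.19-fold lower in Wip1 KO (-2.07). Its intensity of 9.93 in Wip1 KO at 36 h was below the other 3. The dimmer Angptl4 probe was below background in all 4 channels. Of the 13 genes of the list measured at 36 h, 1 was called higher and 2 lower (Angptl4 and Igfbp1), beside 4.71% of all genes. Of these 13, 9 lay above 0, and the median was 0.67 against 0.03 over all genes. The 15 hepatocyte markers had a median of 0.85 in the same comparison.

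Over time, WT showed a rise of Pdk4, a fasting-induced kinase that blocks pyruvate oxidation (2.15). Its dimmer probe gave 1.504, the mean over probes 1.83 and background subtraction 3.12, so its direction held while its size did not. The brighter Pdk4 probe was not well above background in Wip1 KO at either time, so no change is given there. In Wip1 KO, Angptl4 fell (-1.28) and Fasn fell (-1.25). For the difference between times, 13 were measured, and 8.22% of all genes were called. Of the 13, 1 was called higher and 2 lower, Igfbp1 and Angptl4 (-2.09). Of the 14 measured in each genotype, 3 were called in WT (2 higher and 1 lower), beside 2.94% of all genes. In Wip1 KO 5 were called (1 higher and 4 lower), beside 6.14%. Whether the genotypes differed in this was not tested.

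Further lists around the members are read against the shares of all genes called. These were 2.27% at 24 h, 4.71% at 36 h, 6.14% over time in Wip1 KO and 8.22% in the difference between times. Among 29 regulators of insulin and PI3K signalling, none of the 14 measured at 24 h and none of the 9 at 36 h was called. Over time in Wip1 KO, 1 of 9 measured was called. In the difference between times, 9 were measured, of which 1 was called higher and 1 lower. Socs3, a feedback inhibitor of cytokine and insulin signals, had log2 ratios of -0.50 and 0.70 and a called difference of 1.20. Enpp1, a membrane enzyme that can inhibit the insulin receptor, had 0.64 and -0.42, with a called difference of -1.06 and a called fall over time in Wip1 KO (-1.02).

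For amino acid sensing and the lysosomal control of mTORC1, 19 of 33 genes on the arrays were measured at each time. Only Castor2, which encodes a partner of the arginine sensor CASTOR1, was called. Its log2 intensity was 9.60 in WT and 9.31 in Wip1 KO at 24 h and 9.06 and 10.17 at 36 h, which made it 2.16-fold higher in Wip1 KO at 36 h. The difference between times was 1.40. The medians of the list were -0.08 at 24 h and 0.04 at 36 h. Of the AMPK and LKB1 genes, 8 were measured at each time and none was called in any comparison, with a range of -0.49 (Prkag1) to 0.38 (Prkab1) at 24 h.

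Among 19 genes for translation under mTORC1, 11 were measured at each time, of which 1 was called at each, and 2 of 10 were called in the difference between times. Eif4g1, the scaffold on which eIF4E and the helicase meet, had intensities of 10.61 in WT and 9.29 in Wip1 KO at 24 h and 9.87 and 10.20 at 36 h. It was 2.49-fold lower in Wip1 KO at 24 h (-1.32) and had 0.33 at 36 h, a called difference of 1.65. Eif4g1 thus had the same order of samples as Ddit4, with Wip1 KO at 24 h the lowest. Eif4ebp3, a relative of Eif4ebp1 that is itself a repressor of eIF4E, had intensities of 11.11, 11.02 and 11.27 in WT and Wip1 KO at 24 h and WT at 36 h, and of 12.66 in Wip1 KO at 36 h. It was 2.62-fold higher in Wip1 KO at 36 h, and rose over time in Wip1 KO (1.63), the only call among the 10 measured there.

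Of the autophagy genes under ULK1 and TFEB, 24 were measured at each time, with 9 above 0 at 24 h and 17 above 0 at 36 h. Only Ctsl, the lysosomal protease cathepsin L, was called, higher in Wip1 KO at 36 h (1.19) and in the difference between times (1.10). Its intensity was 13.03 in WT at 36 h and 14.22 in Wip1 KO, with 13.73 and 13.81 at 24 h, so the low sample was WT at 36 h. The medians of the list were -0.05 at 24 h and 0.16 at 36 h.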

How the data were processed

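The authors deposited, per the file headers, LuxScan spot tables with raw median foreground and local background intensities in both channels, not normalised. A further deposited table holds the authors' linear ratio of Wip1 KO over WT, by a normalisation not given in the sources used here. It lists no probe names, and row order was used to pair it with the probes. That order was found by correlation with the loess ratios, so the correlation is not an independent check. It gave r = 0.971 at 24 h and 0.974 at 36 h, against 0.026 and 0.0432 shifted by 1 row. With rows taken in spot order, r was 0.0231 and 0.0184. The medians of the deposited ratios were 0.999 and 1, and this table served as an alternative only. The direction of every ratio rests on the dyes in the labels.

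Background was corrected by normexp (offset 50). Loess was then applied within each array, with the 1776 control spots of 33696 at weight 0, and Aquantile between arrays for intensities and changes over time (limma 3.58.1, R 4.3.3). The fit was tested on simulated data. The simulation covered background correction and loess within an array, and did not cover Aquantile between arrays. Names were brought to current symbols with a RefSeq gene table, and the brightest probe stood for a gene. Counting used Python 3.11.15, numpy 2.4.6 and pandas 2.3.3, and figures matplotlib 3.10.9.

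The members and lists were chosen with earlier results of these data known. Members called in at least 1 of 5 comparisons are described in full and the others by role, and of each further list up to 3 called genes per comparison are named. The Mtor promoter and the uncalled list genes Prkag1 and Prkab1 were chosen after their values were seen. Some genes counted in the further lists are not reported here by name. Alternatives covered background, normalisation, dim spots, probe choice and the authors' ratio and, added after seeing the data, spots with a deposited flag of 100, whose meaning is not given in the sources used here.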

Additional observations from a re-analysis of the deposited data

Results flagged for a closer look

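For 3 members the genotype ratio had opposite signs at 24 h and 36 h and differed by at least 2-fold between the times. The log2 ratio at 36 h minus that at 24 h was -1.46 for Mtor, 1.26 for Ddit4 and 1.16 for Sgk1. Each time had 1 array, so the difference was not tested. Among the genes named from the further lists the same held for Igfbp1 (-4.02), Angptl4 (-2.09), Klf9 (-1.28), Enpp1 (-1.06) and Nfkbia (-1.01), whose ratios went down. It also held for Eif4g1 (1.65), Tat (1.49), Eif4ebp3 (1.47), Castor2 (1.40) and Socs3 (1.20), whose ratios went up. For Angptl4 and Eif4ebp3 the ratio at 24 h was close to 0 (0.02 and -0.08), so that the opposite sign rests on a small value.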

How the results depend on the processing

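No paired analysis was possible because each group is 1 RNA on 1 array. The called member values kept their direction in every alternative that gave a value. Past 2-fold were 10 of 10 alternatives for Ddit4 at 24 h (log2 ratio -1.56 to -1.09), 8 of 9 for Irs2 at 24 h (-1.29 to -0.96), 9 of 9 for Irs2 over time in Wip1 KO (1.02 to 1.42), and, for the difference between times, 10 of 10 for Mtor (-1.54 to -1.25), 9 of 9 for Ddit4 (1.26 to 1.89) and 9 of 9 for Sgk1 (1.16 to 1.68). Sgk1 at 24 h was past 2-fold in 4 of 9. Under the filter at 5 background SDs, Irs2 and Sgk1 had no value at 24 h, Irs2 had none over time in Wip1 KO, nor had Ddit4, Irs2 and Sgk1 one in the difference between times. Of the genes named from further lists, Enpp1 over time in Wip1 KO (-0.96), its difference between times (-0.87), Klf9 at 24 h (0.96) and the difference for Nfkbia (-0.81) went under 2-fold in at least 1 alternative.

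Counts moved more. At 24 h, 1 member was lower with print-tip loess (Ddit4) and 1 of 18 measured with the stricter filter, and over all genes 310 were called after background subtraction, 285 with no background correction and 304 in the authors' ratio, against 181. In WT over time 439 were called after subtraction and 156 with the stricter filter, against 251. In Wip1 KO over time 1 member, Mtor, fell under subtraction, under quantile normalisation and with no normalisation between arrays, against 0. With the stricter filter 0 of 17 members rose, and over all genes 653 were called after subtraction, 803 with no filter, 282 with the stricter filter and 761 with genes at their bound, against 435. For the difference between times, 4 members were higher after subtraction, with no background correction and in the authors' ratio and 0 of 15 with the stricter filter, against 2, and the members' median was 0.35 under median centring, against 0.14. Median centring moved the median of all genes by -0.12 at 24 h and by 0.19 in the difference between times. It gave 83 genes higher and 88 lower at 24 h, against 121 and 60, and 471 and 213 in the difference, against 283 and 292. Equal channel medians gave 244 and 210 in Wip1 KO over time, against 179 and 256. Signal over background gives no value for the 9 members below it. The cause of these shifts was not tested.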

Other observations

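The authors' deposited table also gives ratios for members that were below background in all 4 channels. It lists log2 ratios of 0.90 at 24 h and -1.32 at 36 h for Tsc1, of -1.07 and 0.24 for Irs1 and of 0.15 and -2.93 for Foxo3, where no channel of the scanner files was well above background.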
